A study of Homo sapiens with 6 samples.

Results

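MicroRNA host transcripts are the long RNAs from which microRNAs are cut, and 47 of the 21857 genes counted in these libraries carry a symbol that starts with MIR and ends in HG (host gene). These 47 genes were taken by symbol alone and not by a measured value, although this gene group was chosen with earlier results of these data known. They were compared between untreated MV4;11 cells and MV4;11 cells given FKA at 10 µg/ml for 48 h. MV4;11 is an established human acute myeloid leukemia line whose genotype is given as FLT3-ITD (an internal tandem duplication in a growth factor receptor kinase) with the MLL-AF4 fusion. Both groups share that genotype and the same growth medium with 10% serum. FKA stands for flavokawain A, a chalcone from the kava plant, and the series concerns cell cycle arrest by this compound. Each group held 3 bulk RNA-seq libraries, numbered 1 to 3, and the same number in both groups marks a shared batch. Everything came from a single line, what the control cells received was not stated, and nothing says whether replicates were separate cultures, so the p-values measure only the spread between these libraries, which may be technical.

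As background, a microRNA gene is transcribed as a long primary transcript, and the nuclear enzyme DROSHA with its partner DGCR8 cuts a hairpin from it. XPO5 with RAN carries the hairpin to the cytoplasm, DICER1 trims it to a duplex, and the mature strand is loaded into an Argonaute protein. Bases 2 to 8 of the mature strand, the seed, select most messenger RNA targets, so microRNAs with the same seed form a family. A host transcript is spliced and counted as an ordinary long RNA. Its level is therefore not the level of the mature microRNA, which was not measured here.

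The RefSeq tables (GRCh38.p14) held 46 of the 47 symbols. In 42 of them at least 1 microRNA gene was found, 74 microRNA genes in all. These lay on the strand of the host wherever that strand was known. MicroRNA entries were missing for some hosts, such as MIR124-1HG, so a host without one may still hold a microRNA. The mature strands below are those of the hosts the results turn on, written 5′ to 3′ with the seed in capitals. The first group comes from hosts that were higher with FKA, among them MIR22HG (miR-22, at chr17:1713914-1713935 on the minus strand), MIR23AHG (miR-23a, miR-27a and miR-24) and MIRLET7BHG (let-7a and let-7b).
hsa-miR-22-3p: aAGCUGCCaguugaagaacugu
hsa-miR-23a-3p: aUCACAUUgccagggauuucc
hsa-miR-27a-3p: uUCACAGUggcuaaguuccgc
hsa-miR-24-3p: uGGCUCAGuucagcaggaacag
hsa-let-7a-5p: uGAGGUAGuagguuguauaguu
hsa-let-7b-5p: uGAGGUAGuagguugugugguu
hsa-miR-1915-3p: cCCCAGGGcgacgcggcggg
hsa-miR-503-5p: uAGCAGCGggaacaguucugcag
hsa-miR-9-5p: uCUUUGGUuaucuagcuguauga

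The next group comes from hosts that were lower with FKA. MIR155HG holds miR-155 (chr21:25573983-25574006, plus strand), MIR17HG holds the miR-17-92 cluster on chromosome 13, MIR99AHG holds miR-99a, let-7c and miR-125b on chromosome 21, and MIR222HG holds miR-221 and miR-222 on the X chromosome.
hsa-miR-155-5p: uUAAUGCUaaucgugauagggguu
hsa-miR-17-5p: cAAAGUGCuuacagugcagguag
hsa-miR-20a-5p: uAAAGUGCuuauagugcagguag
hsa-miR-92a-3p: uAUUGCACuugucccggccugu
hsa-let-7c-5p: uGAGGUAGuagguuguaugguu
hsa-miR-99a-5p: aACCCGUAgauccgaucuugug
hsa-miR-125b-5p: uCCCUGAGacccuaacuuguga
hsa-miR-221-3p: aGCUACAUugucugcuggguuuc
hsa-miR-222-3p: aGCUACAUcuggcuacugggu
hsa-miR-646: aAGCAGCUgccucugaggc
hsa-miR-600: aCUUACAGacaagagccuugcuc

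Library totals ran from 29971171 to 36362421 counts. The host transcripts held between 0.0442% and 0.0544% of all counts in the control libraries and between 0.0717% and 0.0876% in the FKA libraries. Of 10 listed myeloid identity genes, all with counts, FLT3 was at 299 to 373 CPM (counts scaled to library size by TMM factors) in control and 327 to 418 in FKA. With SPI1, CEBPA, CD33 and LYZ it was among 5 that were not called, whereas 3 were higher (CSF3R by 1.53 on the log2 scale, ITGAM by 1.51 and CD14 by 2.22) and 2 lower (MPO at -5.36 and FCGR1A at -1.82). Collagen and fibronectin RNA, markers of mesenchymal cells, stood high in FKA replicates 2 and 3, where COL1A1 was at 13.0 and 12.9 CPM against 0.342 in FKA replicate 1 and 0.119 to 2.41 in control. Summed over the 15 listed mesenchymal genes the level was 295 to 419 CPM in control and 458 to 549 in FKA, with no gene at 0 in every library. FKA replicate 1, low in COL1A1, was at 458 CPM and thus also above the controls, so the sum did not follow COL1A1. Of the 10 that were tested, VIM was higher, COL6A3 was lower and 8 were not called. Calls of the hosts and the listed genes named below that were lost without those 2 libraries are given beside them, VIM (adjusted p = 0.0796 by edgeR) and CD14 (0.0749) being 2 such, and the part of the mesenchymal RNA in them was not tested. The summed level of epithelial markers was 34.4 to 38.6 CPM in control and 13.6 to 19.1 in FKA, that of T and NK cell markers 21.5 to 24.3 and 9.5 to 9.95, and that of B cell markers 20.6 to 27.3 and 7.3 to 9.67. The T and NK sum and the B cell sum rested mainly on NKG7 and PAX5, while CD3D had at most 1 count in any library.

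Of the 47 host transcripts, 24 had enough counts to be tested and 23 were too low. Among the 24, 9 were higher with FKA, 7 were lower and 8 were not called at an adjusted p of 0.05 (edgeR quasi-likelihood F test with Benjamini-Hochberg adjustment over 13531 genes). The 16 calls are 66.7% of the tested hosts, beside 59.8% of all tested genes. By direction, 37.5% of the hosts were higher and 29.2% lower, beside 29.3% and 30.5% of all genes, so the share of lower hosts lay near the background. At least 2-fold changes were found in 6 higher and 5 lower hosts, while 25.5% of all genes changed that much. The median log2 fold change was 0.36 over the tested hosts and 0.01 over all tested genes. In 17 tested hosts the FKA and control libraries did not overlap, as in 67.3% of all tested genes, and the 16 called hosts were among them. With the batch as a block the counts were again 9 higher and 7 lower (30.0% and 31.2% of all genes, 61.3% together), and all calls stayed. Without FKA replicates 2 and 3 they were 5 higher and 8 lower, beside 14.1% and 18.1% of all genes (32.3% together). With limma on genes of at least 1 mean FPKM, 19 hosts were tested, 10 were higher and 4 lower, beside 38.6% and 26.0% of genes. A low-count gene passes the filter more readily when it differs between groups, so these counts describe the tested hosts and not the 47. MIR3945HG, untested in the main fit, was among the 8 lower hosts without FKA replicates 2 and 3. It passed that filter through its control counts (9, 11 and 9, with 0 in each FKA library).

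**Figure D1:**
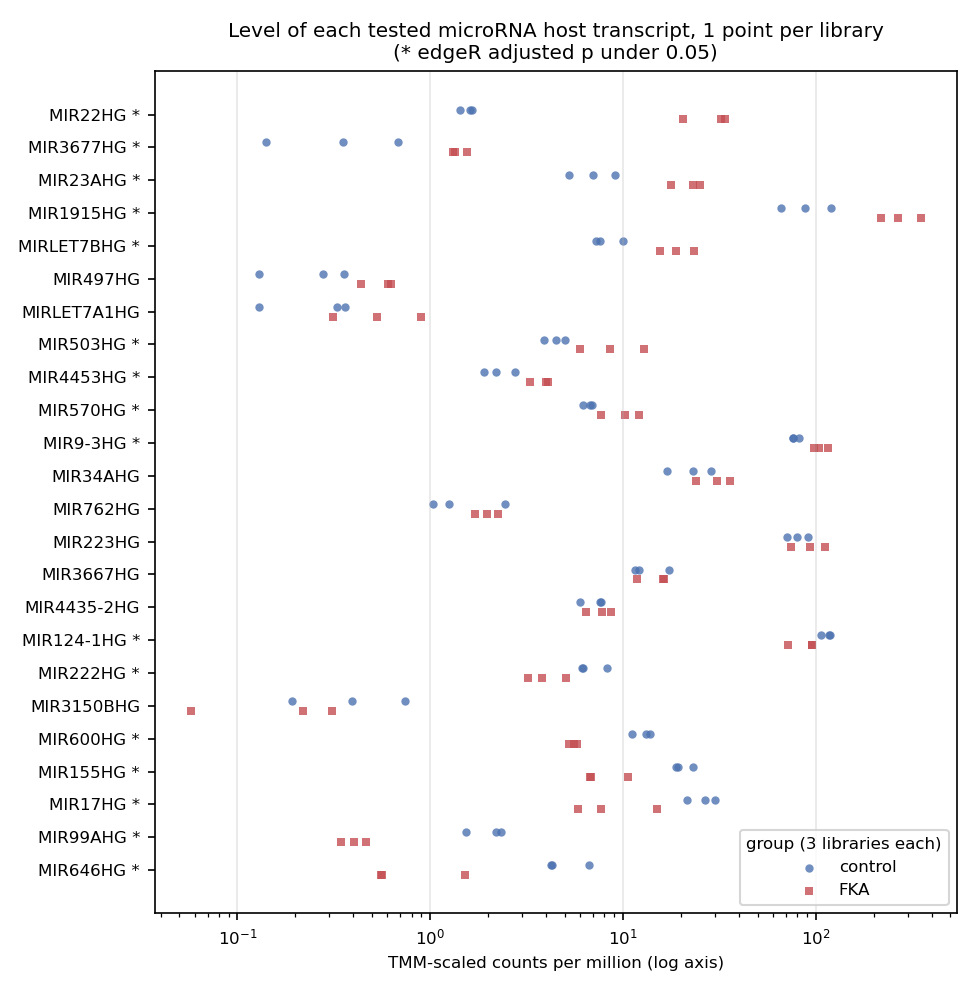
CPM of the 24 tested host transcripts on a log axis, with 1 point per library (blue circles: control, red squares: FKA) and an asterisk for an adjusted p under 0.05. MIR22HG shows the widest gap at the top, MIR646HG and MIR99AHG the widest gaps at the bottom, and MIR1915HG the highest FKA levels.

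MIR22HG, the host of miR-22, showed the largest rise among the 24 tested hosts. It stood at 1.61, 1.65 and 1.43 CPM in the control libraries and at 20.5, 32.1 and 33.7 CPM in the FKA libraries. All FKA libraries lay far above all control libraries. The fitted difference was 4.20 in log2 units (SE 0.228, edgeR adjusted p = 4.22e-06), an 18.4-fold rise, and it was 3.63, 4.24 and 4.50 within batches 1, 2 and 3. On the per-length scale, the mean FPKM was 0.54 ± 0.0528 in control and 11.1 ± 2.78 in FKA (SD, n = 3). In the fit with only FKA replicate 1 in the treated arm, whose spread is then taken from the control libraries, the difference was 3.70 (edgeR adjusted p = 0.000142).

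MIR1915HG carried the most counts of any host over the 6 libraries together, although MIR124-1HG was higher in control (a mean of 114 against 91.4 CPM). Its levels were 66.0, 120 and 88.0 CPM in control and 267, 350 and 218 CPM in FKA. No FKA library was as low as any control library. The fitted log2 difference was 1.61 (SE 0.232, edgeR adjusted p = 0.0004). MIR1915HG made up 13.7%, 21.7% and 17.2% of all host counts in the control libraries and 39.2%, 42.7% and 29.7% in the FKA libraries, so the larger share of counts in hosts rested in good part on this transcript. The nearest counted gene on 1 side, SKIDA1, was also higher, with a log2 difference of 0.85 (edgeR adjusted p = 0.00144).

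MIR23AHG gives rise to miR-23a, miR-27a and miR-24, a cluster reported to be repressed by MYC and activated by the myeloid factor PU.1. It rose from 5.24, 9.05 and 6.99 CPM in control to 17.8, 23.0 and 25.1 CPM with FKA, and the groups did not overlap. The log2 difference was 1.63 (SE 0.217, edgeR adjusted p = 0.000263), with 1.75, 1.34 and 1.83 within the batches. AOPEP, the protein-coding gene that holds the sister cluster of miR-23b, miR-27b and a further copy of miR-24, did not pass the test (log2 difference 0.34, SE 0.187, edgeR adjusted p = 0.148). Whether these 2 hosts differ in their response was not tested.

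MIRLET7BHG, a host of let-7a and let-7b, was at 10.0, 7.21 and 7.62 CPM in control and at 15.6, 23.5 and 18.9 CPM with FKA. Every FKA library lay above every control library. It amounted to a log2 difference of 1.22 (SE 0.195, edgeR adjusted p = 0.000686), with 0.63 in batch 1 against 1.70 and 1.30 in batches 2 and 3. LOC112268288, which overlaps it on the same strand, rose as well (log2 difference 1.79, edgeR adjusted p = 0.00893), and reads of the overlap could be split between the 2 genes.

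MIR503HG hosts miR-503. Its levels were 3.89, 5.00 and 4.52 CPM in control and 5.96, 12.8 and 8.55 CPM in FKA, with FKA replicate 2 the highest. The log2 difference of 1.03 (SE 0.273, edgeR adjusted p = 0.0102) fell to 0.40 without FKA replicates 2 and 3, and the call was lost. Collagen RNA stood high in those 2 libraries, and its part in this was not tested. MIR3677HG, host of miR-3677 and miR-940, was scarce: 0.354, 0.14 and 0.684 CPM in control against 1.34, 1.31 and 1.55 CPM in FKA. Its FKA libraries lay close together and above all controls. Its log2 difference was 1.83 (SE 0.484, edgeR adjusted p = 0.00979). It was 2.50 without control replicate 3, and it was 1.75 with an adjusted p of 0.115 (edgeR) without FKA replicates 2 and 3.

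The other 3 higher hosts changed by less than 2-fold. MIR4453HG was at 2.19, 2.74 and 1.90 CPM in control and 3.29, 4.09 and 4.00 in FKA (log2 difference 0.74, SE 0.228, edgeR adjusted p = 0.0205). MIR570HG was at 6.18, 6.93 and 6.72 CPM in control and 10.2, 7.72 and 12.1 in FKA (0.60, SE 0.190, edgeR adjusted p = 0.0225). MIR9-3HG, a host of the neural microRNA miR-9 that is also known from MLL-rearranged leukemia, was at 76.2, 76.7 and 81.7 CPM in control and 116, 97.6 and 104 in FKA (0.44, SE 0.0909, edgeR adjusted p = 0.00294). The groups did not overlap for any of them, but MIR4453HG and MIR570HG were close to the threshold. MIR4453HG lost its call without control replicate 3 (0.61, edgeR adjusted p = 0.0786), FKA replicate 2 (0.68, 0.0630) or FKA replicate 3 (0.70, 0.0589). MIR570HG lost it without control replicate 1 (0.54, edgeR adjusted p = 0.0545), control replicate 3 (0.60, 0.0598), FKA replicate 1 (0.58, 0.0607) or FKA replicate 3 (0.44, 0.0886). Without FKA replicates 2 and 3 together, MIR4453HG was at 0.52 (edgeR adjusted p = 0.305) and MIR570HG at 0.62 (0.0779).

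Among the 7 tested hosts that were lower, MIR646HG fell the most. It was at 6.63, 4.27 and 4.22 CPM in control and at 0.559, 0.563 and 1.52 CPM with FKA. FKA replicate 3 was the highest of the treated libraries and still lay below all controls. The log2 difference was -2.50 (SE 0.410, edgeR adjusted p = 0.000797), with -3.43, -2.80 and -1.43 within batches 1 to 3, and it was -3.16 without FKA replicate 3. LOC105372698, a non-coding gene that overlaps MIR646HG on the same strand, was at 6.77 CPM in control and 0.788 CPM in FKA on average (log2 difference -3.08, edgeR adjusted p = 0.000697), so their reads may be shared.

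MIR99AHG, the host of let-7c, miR-99a and miR-125b, fell from 2.19, 1.54 and 2.32 CPM to 0.466, 0.344 and 0.403 CPM. The groups were widely separated and the batches gave like differences of -2.10, -1.98 and -2.36. The fitted log2 difference was -2.31 (SE 0.323, edgeR adjusted p = 0.00034). MIR100HG, the host of the paralogous cluster with miR-100, let-7a and another copy of miR-125b, had only 2 counts over the 6 libraries.

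MIR17HG holds the miR-17-92 cluster, which promotes proliferation and is a known target of MYC and E2F factors. Its levels were 26.8, 21.5 and 30.0 CPM in control and 7.70, 5.88 and 15.0 CPM in FKA. FKA replicate 3 kept the highest level of the treated libraries and lay below the lowest control. The log2 difference was -1.45 (SE 0.310, edgeR adjusted p = 0.00336), and -1.79, -1.86 and -1.0 within the batches. The seeds of miR-17 and miR-20a also occur in miR-93 and miR-106b, and that of miR-92a in miR-25. These 3 lie within MCM7, the gene of a replication helicase subunit, which fell by 2.82 in log2 units (SE 0.122, edgeR adjusted p = 1.38e-06).

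MIR155HG, the host of miR-155, a microRNA of activated lymphoid and myeloid cells that is often high in FLT3-ITD leukemia, was at 19.2, 23.1 and 18.8 CPM in control. With FKA it was at 6.77, 6.85 and 10.6 CPM, below all controls. On the log2 scale this is -1.33 (SE 0.198, edgeR adjusted p = 0.000478), and -1.49, -1.74 and -0.82 within the batches. Its promoter window in RefSeq, 250 bases before to 50 after the start, lies at chr21:25561895-25562194 (GRCh38.p14, plus strand). It is shown because it was the only searched window of a lower host with both an AP-1 and a STAT motif, whose matches are in capitals.
MIR155HG promoter: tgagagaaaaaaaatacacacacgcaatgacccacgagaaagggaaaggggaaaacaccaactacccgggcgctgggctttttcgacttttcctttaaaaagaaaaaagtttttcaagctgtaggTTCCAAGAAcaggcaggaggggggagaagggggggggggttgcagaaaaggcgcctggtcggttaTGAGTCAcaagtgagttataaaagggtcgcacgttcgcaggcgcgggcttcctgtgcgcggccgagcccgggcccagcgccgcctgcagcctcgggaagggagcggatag

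Motifs were searched on both strands of such windows for 13 called hosts, 7 higher and 6 lower. MIR570HG, MIRLET7BHG and MIR124-1HG were called but not searched, the last because its chromosome was left out. The AP-1 letters TGANTCA were found in 1 lower host, MIR155HG, and in 7.72% of all 34943 promoter windows. The STAT letters TTCNNNGAA were found in 2 lower hosts, MIR155HG and MIR99AHG, and in 7.66% of windows. The forkhead letters GTAAACA were found in MIR99AHG and in 3.42% of windows, and the antioxidant response core TGACNNNGC in MIR503HG and in 13.3%. The E-box CACGTG, the letters bound by MYC, was found in none of the 13 and in 7.23% of all windows. AP-1 letters can overlap those of the antioxidant core. MIR9-3HG and MIR99AHG had several windows each, so the 13 hosts had 21 windows. The STAT and the forkhead match of MIR99AHG lay in different windows. A share over single windows is therefore not a like background for a host with several. A match describes these letters only.

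MIR600HG, the host of miR-600, was at 13.8, 11.1 and 13.1 CPM in control and at 5.59, 5.28 and 5.75 CPM in FKA. Replicates lay close together in both groups. FKA minus control was -1.19 in log2 units (SE 0.153, edgeR adjusted p = 0.000214). It overlaps STRBP on the same strand, a gene for an RNA-binding protein that went from 81.9 to 28.7 CPM on average (log2 difference -1.51, edgeR adjusted p = 7.89e-06), and because STRBP was the more abundant, reads assigned to MIR600HG may include some of STRBP.

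MIR222HG hosts miR-221 and miR-222, which share 1 seed and are known to target the cell cycle inhibitor p27. Its levels were 8.30, 6.20 and 6.16 CPM in control and 3.23, 3.81 and 5.09 CPM in FKA. The highest FKA library lay just below the lowest control. The log2 difference was -0.76 (SE 0.226, edgeR adjusted p = 0.0166), but the call was lost without FKA replicate 1 (-0.63, edgeR adjusted p = 0.0590) or FKA replicate 2 (-0.72, 0.0501). Limma on log2(FPKM + 1) or log2(FPKM + 0.1) did not call MIR222HG either (adjusted p = 0.0950 and 0.0916). MIR124-1HG, a host named for the neuronal miR-124, was at 106, 117 and 118 CPM in control and 71.5, 95.7 and 96.0 in FKA. Its log2 difference was -0.37 (SE 0.122, edgeR adjusted p = 0.0256). That call was lost when libraries were scaled by their totals (-0.22, edgeR adjusted p = 0.172) or by upper-quartile factors (-0.30, 0.0587), with limma on FPKM (adjusted p from 0.164 to 0.173), and also without control replicate 2 (-0.36, 0.0637), control replicate 3 (-0.36, 0.0712) or FKA replicate 1 (-0.25, 0.0689).

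**Figure D2:**
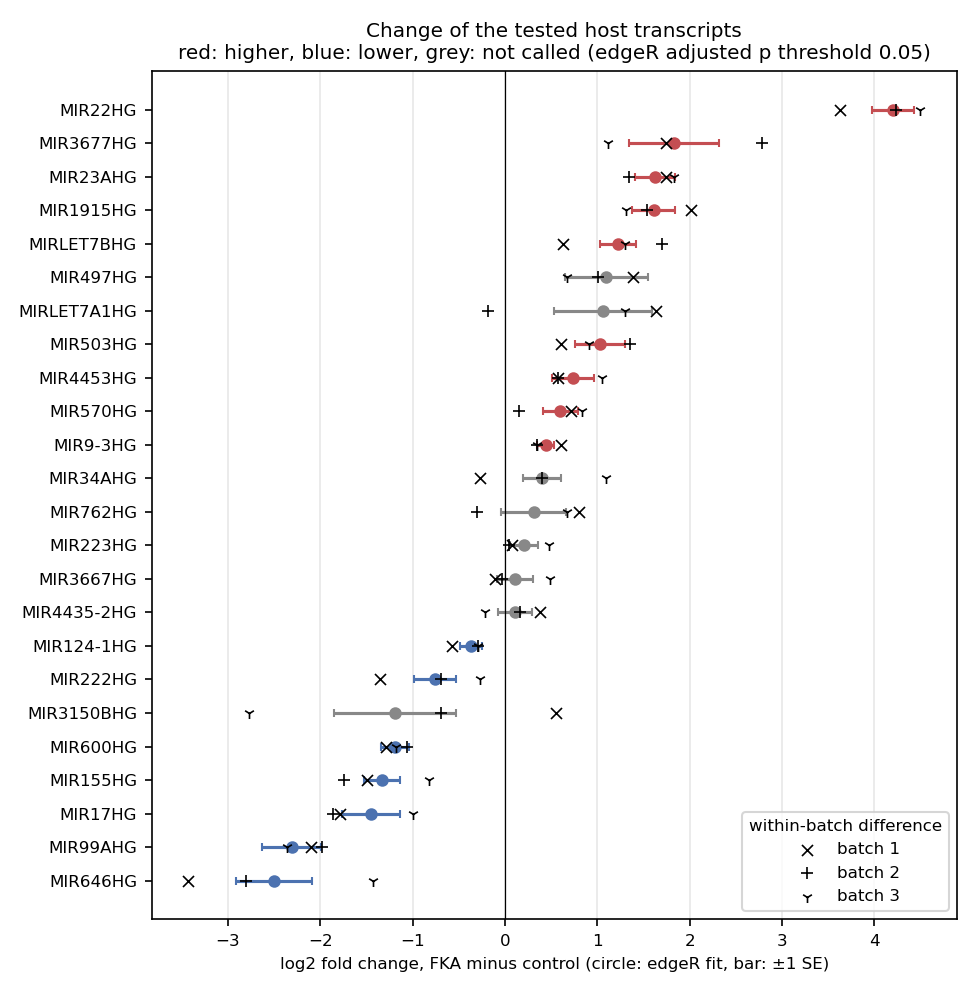
Fitted log2 fold change of the 24 tested hosts, FKA minus control (circles, with bars of 1 SE; red higher, blue lower, grey not called), and the difference within each of the 3 batches (crosses). The 16 coloured hosts have groups that do not overlap, so their 3 batch values lie on 1 side of 0, from MIR22HG at 4.20 to MIR646HG at -2.50.

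The 8 tested hosts that were not called included MIR223HG, whose miR-223 marks granulocytic and monocytic cells. It was at 70.8, 90.9 and 80.0 CPM in control and 74.6, 93.4 and 112 CPM in FKA, with overlapping groups (log2 difference 0.21, SE 0.151, edgeR adjusted p = 0.254). MIR34AHG, host of the p53-responsive miR-34a, was at 28.7, 23.1 and 16.9 CPM and 23.8, 30.6 and 36.0 CPM (0.40, SE 0.209, edgeR adjusted p = 0.127). Its groups overlapped and batch 1 went the other way (-0.27). Without control replicate 1 it was called higher (0.58, edgeR adjusted p = 0.0335), as it was with library totals (0.56, 0.0423) and with limma on genes of at least 1 mean FPKM (adjusted p = 0.0454). LNCTAM34A, on the opposite strand of MIR34AHG, was higher with FKA (log2 difference 2.31, edgeR adjusted p = 0.000543), and without a stated use of strand the reads of such a pair cannot be told apart. The same limit holds for MIR762HG (0.31, SE 0.351, edgeR adjusted p = 0.461) and BCL7C on its other strand, which rose by 1.43 on the log2 scale (edgeR adjusted p = 0.000193).

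MIR497HG, host of miR-195 and miR-497, was at 0.129, 0.279 and 0.357 CPM in control and 0.435, 0.625 and 0.604 CPM in FKA. The groups did not overlap, yet the difference of 1.10 did not pass the test (SE 0.448, edgeR adjusted p = 0.0598). It was called with library totals (1.25, edgeR adjusted p = 0.0381), with upper-quartile factors (1.17, 0.0465) and with limma on log2(FPKM + 1) (adjusted p = 0.00777). MIRLET7A1HG, host of let-7a, let-7f and let-7d, gave 1.06 (SE 0.531, edgeR adjusted p = 0.112). The remaining 3 were MIR3667HG (0.11, SE 0.198, edgeR adjusted p = 0.659), MIR4435-2HG (0.11, SE 0.180, 0.635) and MIR3150BHG (-1.19, SE 0.661, 0.15), each with overlapping groups.

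Per unit of transcript length, the order of the hosts also shifted. In the control libraries MIR223HG had the highest mean FPKM (42.0 ± 6.73, SD, n = 3), followed by MIR124-1HG at 36.8, MIR1915HG at 22.9, MIR9-3HG at 14.1 and MIR155HG at 13.1. With FKA the order was MIR1915HG at 77.6, MIR223HG at 54.1, MIR124-1HG at 31.7 and MIR9-3HG at 21.3. MIR155HG, at 5.78, was below MIR503HG at 12.3, MIR570HG at 11.2 and MIR22HG at 11.1 in FKA. FPKM are not corrected for composition, so these are levels within a library and carry no test.

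The 23 hosts that were too low to test never exceeded 16 counts in a library. Of these, 8 had at least 10 counts over the 6 libraries. MIR3945HG had 9, 11 and 9 counts in control and 0 in each FKA library, which is at least 8.54-fold lower against a floor of 3 counts over the FKA group. MIR3976HG went the opposite way, with 0 in each control library and 4, 12 and 15 counts in FKA, at least 11.7-fold higher against the same floor. MIR29B2CHG, host of the differentiation-linked miR-29b and miR-29c, had 2, 3 and 1 counts in control and 6, 15 and 16 in FKA, a ratio of 6.98 after division by the library totals (exact 95% binomial interval 2.92 to 20.2). None of the 3 overlapped between groups, but neither did the untested MIR3936HG, MIR4432HG, MIR4500HG and MIR5689HG. The share without overlap among all untested genes was not counted. The intervals cover counting error only, not the spread between libraries.

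These 3 were called when the count filter was dropped, with edgeR adjusted p = 0.000841 for MIR3945HG, 0.00115 for MIR3976HG and 0.0110 for MIR29B2CHG. DESeq2, which tests lower counts, called them too (adjusted p = 0.000675, 0.000765 and 0.0175). Without the filter 37.9% of all genes were called, and by DESeq2 51.1%. MIR3936HG had 2 counts in control and 15 in FKA (ratio 8.49, 1.98 to 76.5). MIR210HG, host of the hypoxia-induced miR-210, had 1 count in control and 15 in FKA, but 13 of the 15 were in FKA replicate 2 (ratio 17.0, 2.61 to 715). MIR5689HG had 11 in control and 1 in FKA (ratio 0.103, 0.00239 to 0.708), MIR4500HG had 13 and 3 (0.261, 0.0478 to 0.951), and MIR181A2HG had 16 and 9 (0.637, 0.248 to 1.53).

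The other 15 had under 10 counts in all: MIR100HG, MIR181A1HG, MIR193BHG, MIR194-2HG, MIR200CHG, MIR302CHG, MIR3142HG, MIR31HG, MIR378D2HG, MIR4422HG, MIR4432HG, MIR4458HG, MIR548XHG, MIR583HG and MIR924HG. MIR3142HG, which also holds the inflammatory regulator miR-146a, had 7 counts in control and 0 in FKA. MIR302CHG, of the stem cell cluster miR-302, had 1 and 7. A difference in these 15 was not detectable at this depth.

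Hosts that share a seed did not all move together. In the let-7 family, whose members are known to restrain growth genes, MIRLET7BHG was higher, MIR99AHG was lower and MIRLET7A1HG was not called. HUWE1, a protein-coding gene with let-7f and miR-98 in its introns, differed by -0.61 in log2 units (SE 0.0913, edgeR adjusted p = 0.000484). In the miR-15 and miR-16 family, whose shared seed is AGCAGCA, SMC4 was lower (log2 difference -0.82, SE 0.135, edgeR adjusted p = 0.000779), while DLEU2 (-0.35, edgeR adjusted p = 0.0595) and MIR497HG (1.10) were not called. For the 2 seeds of the miR-17-92 cluster that recur in MCM7, both hosts were lower. The let-7 strands of the higher and the lower host, shown above, have the same seed and differ only outside it.

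**Figure D3:**
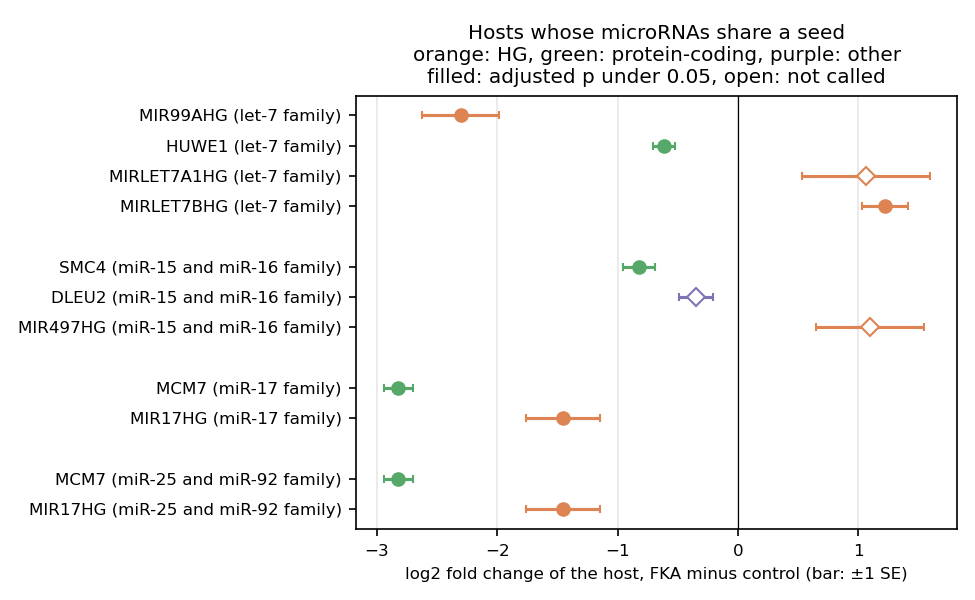
Log2 fold change (FKA minus control, bars of 1 SE) of tested hosts whose microRNAs share a seed, for the let-7, miR-17, miR-25 and miR-92, and miR-15 and miR-16 families. Orange marks HG hosts, green protein-coding hosts and purple other non-coding hosts, and filled points have an adjusted p under 0.05. MIR23AHG and AOPEP, which share the seeds of miR-23, miR-24 and miR-27, are not drawn. The let-7 hosts lie on both sides of 0, from MIR99AHG at -2.31 to MIRLET7BHG at 1.22, whereas MIR17HG at -1.45 and MCM7 at -2.82 both lie below 0.

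Many microRNAs lie in introns of protein-coding genes, and 30 such listed hosts were tested. Of these 10 were higher, 13 lower and 7 not called (76.7% called, beside 59.8% of all genes), with a median log2 fold change of -0.22. Besides MCM7, the largest called changes were those of DNM3, a dynamin gene that holds miR-3120 (2.21, SE 0.221, edgeR adjusted p = 5.94e-05), the scarce PDE2A, host of miR-139 (2.04, SE 0.561, edgeR adjusted p = 0.0118) and SKA2, a spindle gene with miR-301a (-1.42, SE 0.221, edgeR adjusted p = 0.000603). EGFL7, host of miR-126, followed with 1.40 (SE 0.194, edgeR adjusted p = 0.000317). The pantothenate kinase genes, hosts of miR-103a and miR-107, split: PANK2 was higher (0.86) while PANK1 (-0.93) and PANK3 (-0.46) were lower. The hosts of miR-26 split too, with CTDSP2 higher (0.72) and CTDSP1 lower (-0.54, a call that was lost with limma on log2(FPKM + 1), adjusted p = 0.0566). Without FKA replicates 2 and 3, PDE2A (edgeR adjusted p = 0.217), PANK3 (0.0945) and CTDSP1 (0.0603) were not called, and limma on log2(FPKM + 1) did not call PDE2A (adjusted p = 0.0605). Of the 3 tested non-coding hosts without HG in their symbol, none was called by edgeR. CYTOR (-0.55, edgeR adjusted p = 0.0560) and DLEU2 were the 2 of them with an unadjusted p under 0.05, and DESeq2 called both.

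The genes that process, load and destroy microRNAs were taken from 5 lists, and all 29 in the table were tested. Of these 8 were higher, 10 lower and 11 not called, which is 62.1% called beside 59.8% of all genes, and their median log2 fold change was -0.03. This balance moved with the scaling: 44.4% of the calls were higher here, 61.1% with upper-quartile factors and 65.0% with library totals. In the nucleus, DGCR8, the partner of DROSHA, was at 68.3, 66.6 and 72.7 CPM in control and 45.4, 48.0 and 53.0 CPM in FKA (log2 difference -0.50, SE 0.0930, edgeR adjusted p = 0.00156). The helicase DDX17 rose from 811, 796 and 806 to 1469, 1453 and 1233 CPM (0.78, SE 0.105, edgeR adjusted p = 0.000268). KHSRP, a binder of let-7 precursors, fell by 0.58 (edgeR adjusted p = 0.0011). DROSHA itself was at the threshold (-0.20, edgeR adjusted p = 0.046), and the call was lost with the batch as a block (adjusted p = 0.0563) and when any library but control replicate 1 was left out. The DROSHA difference shrank with upper-quartile factors (-0.13, edgeR adjusted p = 0.162) and library totals (-0.04, 0.67). With limma on FPKM it was -0.04 (adjusted p from 0.65 to 0.664). Without FKA replicates 2 and 3 it was -0.28 and DROSHA was not called.

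Both export genes fell. XPO5 was at 234, 163 and 168 CPM in control and 116, 88.9 and 125 CPM in FKA (log2 difference -0.78, SE 0.168, edgeR adjusted p = 0.00352). RAN, which also serves nuclear transport at large, was at 678, 548 and 606 and then 309, 221 and 349 CPM (-1.06, SE 0.166, edgeR adjusted p = 0.000639). DICER1 was at 111 to 121 CPM in control and 111 to 119 in FKA and was not called (edgeR adjusted p = 0.989), while its partner TARBP2 fell by 0.54 (SE 0.142, edgeR adjusted p = 0.00938). TARBP2 was not called without FKA replicates 2 and 3 (-0.36, edgeR adjusted p = 0.225).

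Among Argonautes, AGO2, the member that can slice its target, was lower (-0.43, SE 0.0932, edgeR adjusted p = 0.00374), a call lost with limma on FPKM. AGO1 (0.49, edgeR adjusted p = 0.00372) and AGO4 (0.40, edgeR adjusted p = 0.0202) were higher, the latter not without FKA replicate 1 (adjusted p = 0.0615) or FKA replicate 2 (0.0523). None of these 3 was called without FKA replicates 2 and 3, where AGO2 was at -0.42 (edgeR adjusted p = 0.0946), AGO1 at 0.34 (0.166) and AGO4 at 0.43 (0.131). MOV10, listed with the effector proteins, was higher as well (0.50, edgeR adjusted p = 0.0317). Its call was lost without control replicate 1 (0.31, edgeR adjusted p = 0.0504), FKA replicate 1 (0.54, 0.0544) or FKA replicate 2 (0.38, 0.109). Without FKA replicates 2 and 3 MOV10 was at 0.41 and not called. LIN28B, which blocks let-7 maturation, was at 7.18, 8.55 and 8.45 CPM in control and 2.58, 1.75 and 1.61 CPM in FKA. Its libraries did not overlap, and the log2 difference was -2.03 (SE 0.227, edgeR adjusted p = 0.000105). ZSWIM8, the receptor of a ubiquitin ligase that acts when a target RNA triggers microRNA decay, rose from 56.3, 62.3 and 58.2 to 170, 190 and 168 CPM (1.58, SE 0.0896, edgeR adjusted p = 4.94e-06). TUT7, a uridylyl transferase that tails let-7 precursors, rose from 64.9, 61.9 and 60.8 to 119, 118 and 114 CPM (0.90, SE 0.0780, edgeR adjusted p = 2.77e-05).

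**Figure D4:**
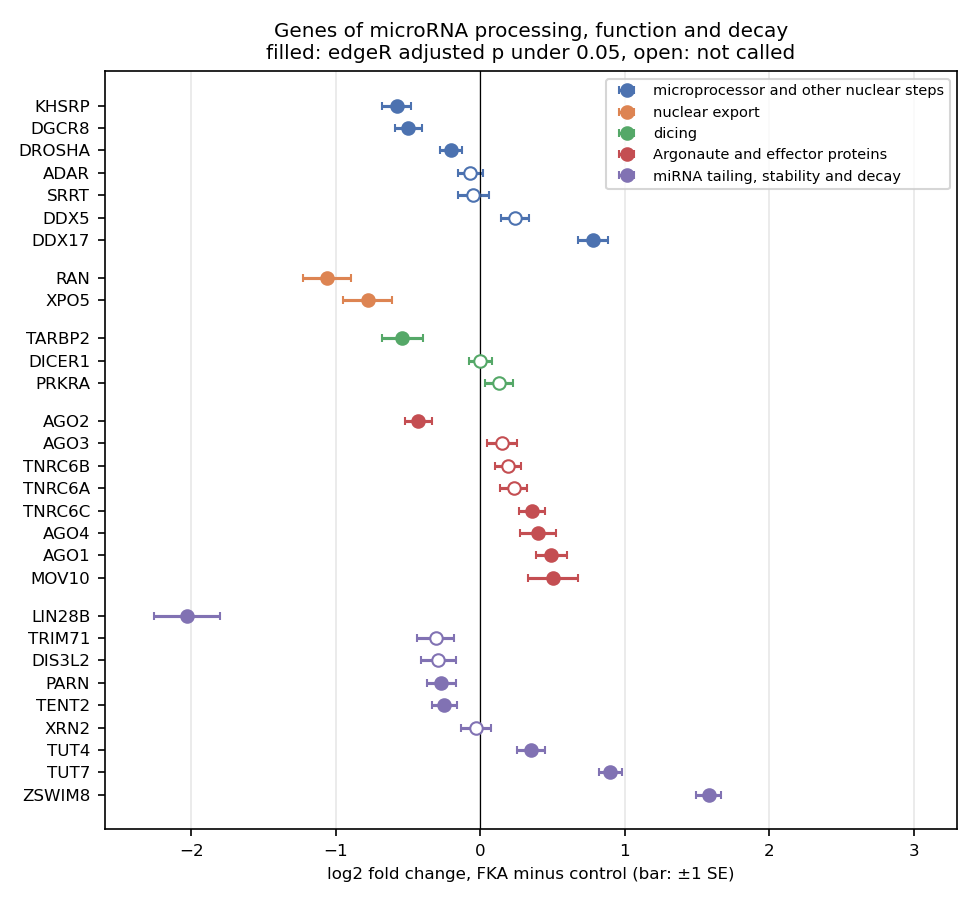
Log2 fold change (FKA minus control, bars of 1 SE) of 29 genes of microRNA processing, export, dicing, effector function and decay, coloured by step, filled where the adjusted p was under 0.05. LIN28B at -2.03 and ZSWIM8 at 1.58 lie farthest from 0, and both export genes lie below it.

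Of 14 tested transcription factors reported to act on these hosts, 7 were lower and none was higher by edgeR. Of all tested genes 59.8% were called, 30.5% lower and 29.3% higher. 0 of the 14 factors were higher at an unadjusted p under 0.05 or by DESeq2, whereas library totals and limma on FPKM called SPI1 and KLF4 higher. MYC and E2F factors are reported activators of MIR17HG. MYC was at 780, 562 and 542 CPM in control and 98.3, 37.6 and 93.6 CPM in FKA (log2 difference -3.04, SE 0.337, edgeR adjusted p = 0.0001), E2F1 differed by -4.44 (SE 0.191, edgeR adjusted p = 1.38e-06) and E2F2 by -7.18 (SE 0.462, edgeR adjusted p = 7.78e-06). SPI1, the gene of PU.1, was not called (0.16, edgeR adjusted p = 0.174). These are levels beside each other, and no link between a factor and a host was tested.

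Reported targets of the microRNAs moved both ways, as did all tested genes (29.3% higher, 30.5% lower, 59.8% called). The lists hold 12 tested genes or fewer each, and the share called ran from 33.3% for the targets of miR-223 to 80.0% for those of miR-155. For miR-155, whose host was lower, 4 of 10 tested targets were higher, 4 lower and 2 not called: TP53INP1, a stress gene, was higher by 2.78 on the log2 scale (edgeR adjusted p = 2.26e-05) and BACH1 by 0.96 (edgeR adjusted p = 3.36e-05), whereas SOCS1 was at -1.59 (edgeR adjusted p = 0.00281) and CEBPB at -1.46 (edgeR adjusted p = 0.000234). For the miR-17-92 cluster, 5 of 12 were higher and 4 lower, among them HBP1 at 1.04 (edgeR adjusted p = 3.11e-05) and TNFAIP3 at -3.12 (edgeR adjusted p = 7.48e-06). E2F1 and E2F2, whose larger falls are given above, were also among the 4 lower. For miR-22, whose host rose, 1 of 5 was higher (TET2, 0.44, edgeR adjusted p = 0.0226, not without FKA replicate 2) and 2 were lower, CDK6 at -0.62 (edgeR adjusted p = 0.000737) and HDAC4 at -0.38 (edgeR adjusted p = 0.0101). The HDAC4 call was lost with library totals (-0.22, edgeR adjusted p = 0.115) and with limma on FPKM (adjusted p from 0.217 to 0.295). Without FKA replicates 2 and 3, HDAC4 (edgeR adjusted p = 0.102) and TET2 (0.201) were not called. For miR-223, 1 of 9 was higher (LMO2, 0.79) and 2 were lower, STMN1 at -2.29 and E2F1. FOXO1, another listed target of miR-223, was not called (0.45, edgeR adjusted p = 0.0668), but the fit blocked by batch called it higher (0.48, edgeR adjusted p = 0.0142), which makes 2 of 9. For miR-146a, 2 of 6 were higher (IRAK2 at 2.19 and NUMB at 0.39) and 1 lower (IRAK1 at -1.26). NUMB was not called without FKA replicate 2 (edgeR adjusted p = 0.0521) or without FKA replicates 2 and 3 (0.201).

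For the 11 hosts changed at least 2-fold, the nearest counted gene on each side in RefSeq order gave 22 neighbours, of which 13 were tested. Of the 13, 8 were called in the direction of the host, 4 in the other direction and 1 was not called, beside 29.3% higher and 30.5% lower of all genes. The 13 lay between 313 and 3651415 bases from their hosts. WDR81 next to MIR22HG differed by 0.37 (edgeR adjusted p = 0.0155), far less than the 4.20 of the host. ZSWIM4 next to MIR23AHG was higher by 1.23 (edgeR adjusted p = 0.000371). Both neighbours of MIRLET7BHG were higher, PPARA, a lipid-sensing receptor, by 1.57 (edgeR adjusted p = 2.54e-05) and LINC02939 by 3.31 (edgeR adjusted p = 0.000256). In the other direction, HPRT1 beside MIR503HG was at -1.02 (edgeR adjusted p = 0.000121) and RNPS1 beside MIR3677HG at -0.72 (edgeR adjusted p = 0.000366).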

How the data were processed

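The authors deposited whole-number read counts per gene and FPKM values for the same 21857 genes in 6 libraries. Both tables hold the same measurement, since each FPKM could be rebuilt from the count, the library total and a fixed gene length (largest relative deviation 5.37e-07). Per the submitters' processing notes the builds are GRCm38 and mm10, which are mouse genomes, while the symbols are human; no source used here names the aligner, counter, annotation, kit or strand setting. RefSeq GRCh38.p14 tables served only for sequences, microRNA positions and gene order.

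The counts were tested in edgeR 4.0.16 (R 4.3.3). Low genes were removed by filterByExpr (minimum count 10), libraries were scaled by TMM, and the 2 groups were compared by the quasi-likelihood F test on all 13531 kept genes, with Benjamini-Hochberg adjustment and a threshold of 0.05. The SE is the log2 fold change divided by the root of F. CPM use TMM-scaled totals. Within-batch differences use log2 CPM with a prior count of 2. A group without counts was set to 3 counts for fold limits. DESeq2 1.42.0 and limma 3.58.1 (log2 of FPKM plus 1 or 0.1) were alternatives. The fit was tested on simulated data. Replicate pairs differed by more than counting noise.

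Batch numbers pair the libraries by label. Paired libraries deviated from their group means with correlations, for batches 1, 2 and 3, of 0.0537, 0.345 and -0.0768. The main test left the batch out, and a fit with it as a block was an alternative. Named were all 47 hosts, with counts only for untested ones with at least 10 counts, up to 4 called genes with the largest change of each other list (more where a family or a cited step is described), and the neighbours of hosts changed at least 2-fold. The hosts and the 20 lists of other genes were chosen with earlier results of these data known.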

Additional observations from a re-analysis of the deposited data

How the results depend on the processing

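With the replicate block, 9 hosts were higher and 7 lower and no host changed its call. In all, 8289 genes were called. Of the processing genes 8 were higher and 8 lower, DROSHA (edgeR adjusted p = 0.0563) and PARN (0.0504) being lost. PARN, at -0.27 in the main fit, was at -0.12 without FKA replicates 2 and 3 and was not called there either. Of the 16 called hosts, 10 kept the call in each of the 17 alternatives in which they were tested and 6 lost it in at least 1; none of the 16 reversed. Of the hosts not called, MIR4435-2HG reached -0.01 without control replicate 1 and MIR3667HG -0.01 without control replicate 3, while leaving out other single libraries gave up to 0.21 and 0.31, and MIR223HG at -0.12 without FKA replicates 2 and 3. Leaving out 1 library gave 7 to 11 higher and 5 to 7 lower hosts, 24 to 26 tested hosts, a median log2 fold change of 0.33 to 0.52, 7090 to 8193 called genes, 6 to 9 higher and 7 to 10 lower processing genes, and 9 to 10 higher and 13 to 15 lower protein-coding hosts. MIR29B2CHG and MIR3976HG, untested in the main fit, were among the higher hosts without control replicate 1, 2 or 3 and without FKA replicate 1. They passed the filter there only through their FKA counts, so these ranges do not describe a fixed set of hosts. Without FKA replicates 2 and 3, an alternative chosen after seeing the data, 5 hosts were higher, 4619 genes were called, and 3 processing genes were higher and 5 lower; the lone treated library is then assumed to vary like the control group, and fewer samples were tested. With no count filter 47 hosts were tested. With limma on FPKM, 6 processing genes were lower with either pseudocount and 5 when genes under a mean FPKM of 1 were dropped, where 4 hosts were lower; with library totals 13 processing genes were higher. The cause was not tested. Library totals shifted the median of all genes by 0.16 on the log2 scale, and with them 60.3% of all calls were higher, beside 48.9%; of the host calls 56.2% were higher here, 64.7% with library totals and 66.7% with limma on log2(FPKM + 1). That scale understates scarce hosts, such as MIR99AHG. Counts limit the 23 untested hosts, and overlapping or antisense genes and the unknown use of strand limit MIR600HG, MIR646HG, MIRLET7BHG, MIR34AHG and MIR762HG.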
